A study of Mus musculus with 12 samples.

Results

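The tubulin isotypes described here are 10 genes of the mouse alpha- and beta-tubulin families, taken by gene name from the 44345 genes in the deposited table. The alpha-tubulin genes are Tuba1a, Tuba1b, Tuba1c and Tuba4a, and the beta-tubulin genes are Tubb2a, Tubb2b, Tubb3, Tubb4a, Tubb5 and Tubb6. All 10 genes passed the filter on low values, a value of at least 0.5 in at least 3 of 12 libraries, and were tested with the other genes that passed it, 15603 in all. The tissue was the dorsal root ganglion (DRG), where the cell bodies of sensory neurons sit, and the mice were of strain C57BL/6 and 6 to 8 weeks old. The sciatic DRG of 2 mice were pooled for each library, and each group had 3 libraries.

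Of the 4 groups, the first received indole-3-propionic acid (IPA), which bacteria of the gut form from the amino acid tryptophan, at 20 mg/kg in phosphate-buffered saline (PBS) by daily gavage for 10 days, then a crush of the sciatic nerve and 3 more days. The second received PBS as vehicle for 10 days, then the same crush and 3 days. The third received IPA for 10 days with the nerve left intact, and the fourth received PBS for 10 days with the nerve left intact. The labels speak of IPA for the days that followed the crush, and they leave unclear if the vehicle was then given too. The crush comparisons therefore carry the additional days as well as the injury. No mouse carried a transgene or mutation according to the labels, and neither sex nor batch is given.

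Microtubules are hollow polymers of alpha- and beta-tubulin pairs, and they give axons their long tracks for transport and much of their shape. Mammals make each subunit from several genes, called isotypes, whose proteins are alike over most of their length and differ mainly in a short acidic tail at the end. The tail faces outward on the microtubule, binds motors and other proteins, and is trimmed or extended by enzymes that add or remove tyrosine and glutamate. In sensory neurons Tubb3, the class III beta-tubulin, is a widely used neuronal marker, and regrowing peripheral axons have long been known to draw on new tubulin synthesis.

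The isotypes differ most at the 3′ end of the coding sequence, which encodes this tail, and the ends of 5 beta genes are shown because they tell how far reads of one gene can be told from those of another. Each line gives the last coding bases with the stop codon, from GENCODE M21 transcripts on GRCm38. Capitals mark bases that differ from Tubb2a or have no partner in it.
Tubb2a: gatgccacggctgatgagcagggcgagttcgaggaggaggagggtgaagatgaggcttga
Tubb2b: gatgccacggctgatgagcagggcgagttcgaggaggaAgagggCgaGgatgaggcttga
Tubb3: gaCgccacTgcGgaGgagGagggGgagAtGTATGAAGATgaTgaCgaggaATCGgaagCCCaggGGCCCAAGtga
Tubb4a: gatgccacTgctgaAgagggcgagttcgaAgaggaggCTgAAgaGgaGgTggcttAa
Tubb5: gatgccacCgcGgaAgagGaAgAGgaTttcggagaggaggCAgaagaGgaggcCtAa

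In these 60 bases Tubb2b differed from Tubb2a at 3 bases, none of which changes the encoded amino acid. Tubb3, whose tail-coding stretch was the longest of those shown at 75 bases, carried 34 bases in capitals. Over the whole coding sequence Tuba1a and Tuba1b were 98.3% identical, Tuba1a and Tuba1c 97.1%, Tuba1b and Tuba1c 97.9%, and Tubb2a and Tubb2b 96.5%. Tuba4a was 84.7% to 85.2% identical to the other alpha genes. Every other pair of beta genes lay between 80.2% and 85.9%.

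Stretches as long as a read were shared within the close groups and also with genes outside them, such as Gm17383 for Tuba1a and Tubb2a-ps2 for Tubb2a. Genes whose locus overlaps the gene itself were not counted. Of all 75-base windows of the longest transcript, 69.6% of those of Tuba1b, 56.7% of those of Tuba1c and 54.1% of those of Tuba1a also occurred in a transcript of another gene. For Tubb2a the share was 43.2% and for Tubb2b it was 32.2%. No window of Tuba4a, Tubb3, Tubb4a, Tubb5 or Tubb6 was shared. How reads that fit several genes were counted is not given in the sources used here, so the split of reads among Tuba1a, Tuba1b and Tuba1c, and between Tubb2a and Tubb2b, is uncertain, and their sums are given below beside the single genes. The sums do not settle reads shared with genes outside these groups.

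**Figure D1:**
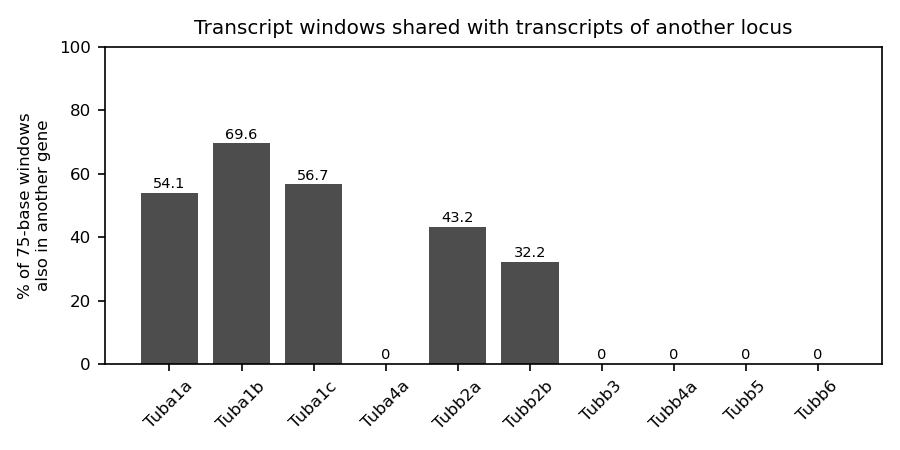
Share of the 75-base windows of each gene's longest GENCODE M21 transcript that also occur in a transcript of another gene, in percent, as 1 bar per gene. Genes whose locus overlaps the gene itself were not counted. The bars stand at 32.2% to 69.6% for Tuba1a, Tuba1b, Tuba1c, Tubb2a and Tubb2b and at 0 for the other 5 genes.

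On mm10 (GRCm38), Tuba1b (chr15:98931425-98934565), Tuba1a (chr15:98949837-98953703) and Tuba1c (chr15:99029891-99038110) lie close together on chromosome 15, with Tuba1c on the plus strand and the others on the minus strand. Gm49450 overlaps Tuba1a and Tuba1b on their own strand, with 3 and 1 pairs of overlapping exons. Gm41396 overlaps Tuba1b on the opposite strand, with 2 pairs. Neither is among the genes of the deposited values, and their part in the reads was not tested. Tubb2a (chr13:34074274-34078007) and Tubb2b (chr13:34126748-34130466) are neighbours on the minus strand of chromosome 13. Tuba4a (chr1:75214228-75219865, minus strand) overlaps Stk16 on the opposite strand, with 4 pairs of overlapping exons. Stk16 reached at most 52.8 in any library, and whether strand was used in counting is not given in the sources used here. Tuba4a averaged 253 in vehicle crush and 304 in vehicle intact libraries, and 265 in IPA crush and 326 in IPA intact libraries. The highest Stk16 value is a level, and the change of Stk16 after crush is not given here. The part of Stk16 reads in the differences of Tuba4a after crush was not tested. Tubb3 lies at chr8:123411424-123422015 on the plus strand, Tubb5 at chr17:35833921-35838306 and Tubb4a at chr17:57080066-57087782, both on the minus strand.

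The promoter of Tubb2a is shown because, of the 8 genes with an entry in the RefSeq promoter table (GRCm38.p6), it held a full cAMP response element and a TATA box together. The stretch chr13:34078022-34078077 of the minus strand lies just upstream of the RefSeq start, and capitals mark TGACGTCA, whose last base is 52 bases upstream, and TATAAA, whose last base is 24 bases upstream.
Tubb2a promoter: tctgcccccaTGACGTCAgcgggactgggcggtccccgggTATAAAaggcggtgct
In the 250 bases upstream of the start, searched on both strands, TGACGTCA stood in 1.55% of all 32851 promoters in the table and TATAAA in 12.4%, and neither stood in the other 7 tubulin promoters. The AP-1 motif TGANTCA, present in 6.75% of all promoters, was found in 0 of the 8. The GC box GGGCGG stood in Tuba1a, Tuba1b, Tuba4a, Tubb2a and Tubb3, against 32.7% of all promoters. The E-box CANNTG stood in 6 of the 8, against 66.2% of all promoters. None of these motifs contains another, and a match is a description of the letters only.

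Values are the deposited CPM-like values: counts of reads scaled by library, with no gene length divided out. Between 40938034 and 62501969 reads per library could be recovered from them, and the lowest count behind any value of the 10 genes was 314 reads, for Tuba1c in the second vehicle intact library. The 10 genes held 1.48% to 1.67% of all recovered reads in the 6 crush libraries and 1.03% to 1.18% in the 6 intact libraries. Replicates differed by more than counting error in every pair (4.8 to 28.3 for chi-square over its degrees of freedom), and the 2 highest values involved replicate 1 of the vehicle crush group. Prph and Avil, from the list of sensory neuron markers, stood at high levels in the tissue, with group means of 1779 to 2133 for Prph and 761 to 788 for Avil. Neither was called as changed after crush in the test below, whereas 6 of the 10 listed markers fell and 2 rose under each treatment. In whole ganglia, fewer cells of a type and less RNA per cell cannot be told apart.

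Levels were compared per kilobase of merged exons among the 10 isotypes only. Of these, Tuba1a made up most of the alpha-tubulin level in every group and Tubb3 most of the beta-tubulin level. Outside these levels is the beta-tubulin gene Tubb4b, with mean CPM-like values of 675 to 745 by group, beside 670 to 763 for Tubb4a. Tubb3 was the gene with the highest CPM-like value of all 15603 in both crush groups, while it ranked 6 in IPA intact and 10 in vehicle intact libraries. Tuba1a ranked 2 in IPA crush and 3 in vehicle crush libraries, and 12 in IPA intact and 13 in vehicle intact libraries. Per kilobase the alpha genes stood in the order Tuba1a, Tuba1b, Tuba4a, Tuba1c in all 4 groups, and no neighbours in that order overlapped over the libraries. Their means per kilobase were 2040, 313, 68.3 and 19.6 in vehicle crush ganglia and 1352, 264, 82.1 and 2.88 in vehicle intact ganglia.

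Per kilobase of merged exons, the order of the beta genes differed between groups in its middle places. The places of Tubb2a and Tubb5 rest on the length used. Tubb5 has 3327 bases of merged exons but 1335 coding bases, and Tubb2a has 1610 and 1338. In CPM-like value, and so per coding base, Tubb5 stood above Tubb2a in all 4 groups. Its mean values were 1640 in vehicle crush and 1219 in vehicle intact ganglia, against 1091 and 594 for Tubb2a. In vehicle crush ganglia the means per kilobase were 2187 for Tubb3, 678 for Tubb2a, 493 for Tubb5, 329 for Tubb4a, 317 for Tubb2b and 56.5 for Tubb6, and Tubb4a and Tubb2b overlapped over the libraries. In vehicle intact ganglia they were 1447 for Tubb3, 369 for Tubb2a, 366 for Tubb5, 301 for Tubb4a, 129.5 for Tubb2b and 6.76 for Tubb6, and Tubb2a and Tubb5 overlapped. Tubb2a and Tubb5 also overlapped in IPA intact ganglia, at 385 and 399 per kilobase. In the IPA crush group no neighbours overlapped.

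The first comparison asked what sciatic crush did to each isotype. After the crush, 8 of the 10 isotypes rose and Tuba4a fell, both under IPA and under vehicle, and Tubb4a did not pass the test in either. The rises differed in size by isotype: Tubb6 was 7.66-fold higher under IPA and 8.13-fold higher under vehicle, whereas Tuba1b was 1.14-fold higher under IPA and 1.19-fold higher under vehicle. These counts stand against a background in which 43.6% of all genes tested passed under IPA (21.2% higher and 22.5% lower) and 48% under vehicle (23.6% higher and 24.4% lower). The median log2 change of the 10 genes was 0.53 under IPA and 0.59 under vehicle, beside -0.02 under IPA and -0.005 under vehicle over all genes. Calls are from limma on log2(value + 0.5) across all 12 libraries at a Benjamini-Hochberg adjusted p under 0.05, and for low genes the pseudocount makes the fold change smaller than it is.

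Tubb6, a beta-tubulin found at low levels in many tissues, changed most. It stood at 142, 134 and 123 in IPA crush libraries, 124, 143 and 146 in vehicle crush libraries, 16.3, 17.98 and 16.5 in IPA intact libraries and 15.8, 16.2 and 17.4 in vehicle intact libraries. Every crush library lay far above every intact library. The log2 fold change was 2.94 ± 0.07 under IPA (SE; limma adjusted p = 1.44e-12) and 3.02 ± 0.07 under vehicle (adjusted p = 8.51e-13). Sorted by log2 change from the highest, it ranked 33 under IPA and 30 under vehicle among 15603 genes.

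Tuba1c, an alpha-tubulin that many tissues use, had the lowest value of the 10 genes in every group. It stood at 44.3, 43.3 and 45.3 in IPA crush libraries, 41.3, 46.8 and 46.3 in vehicle crush libraries, 7.29, 7.47 and 7.15 in IPA intact libraries and 6.69, 5.95 and 7.12 in vehicle intact libraries. The crush and intact libraries did not overlap. It rose by 2.52 ± 0.07 on the log2 scale under IPA (limma adjusted p = 5.13e-12) and by 2.68 ± 0.07 under vehicle (adjusted p = 2.40e-12), 5.74-fold under IPA and 6.40-fold under vehicle. Its rank by log2 change was 49 under IPA and 45 under vehicle.

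**Figure D2:**
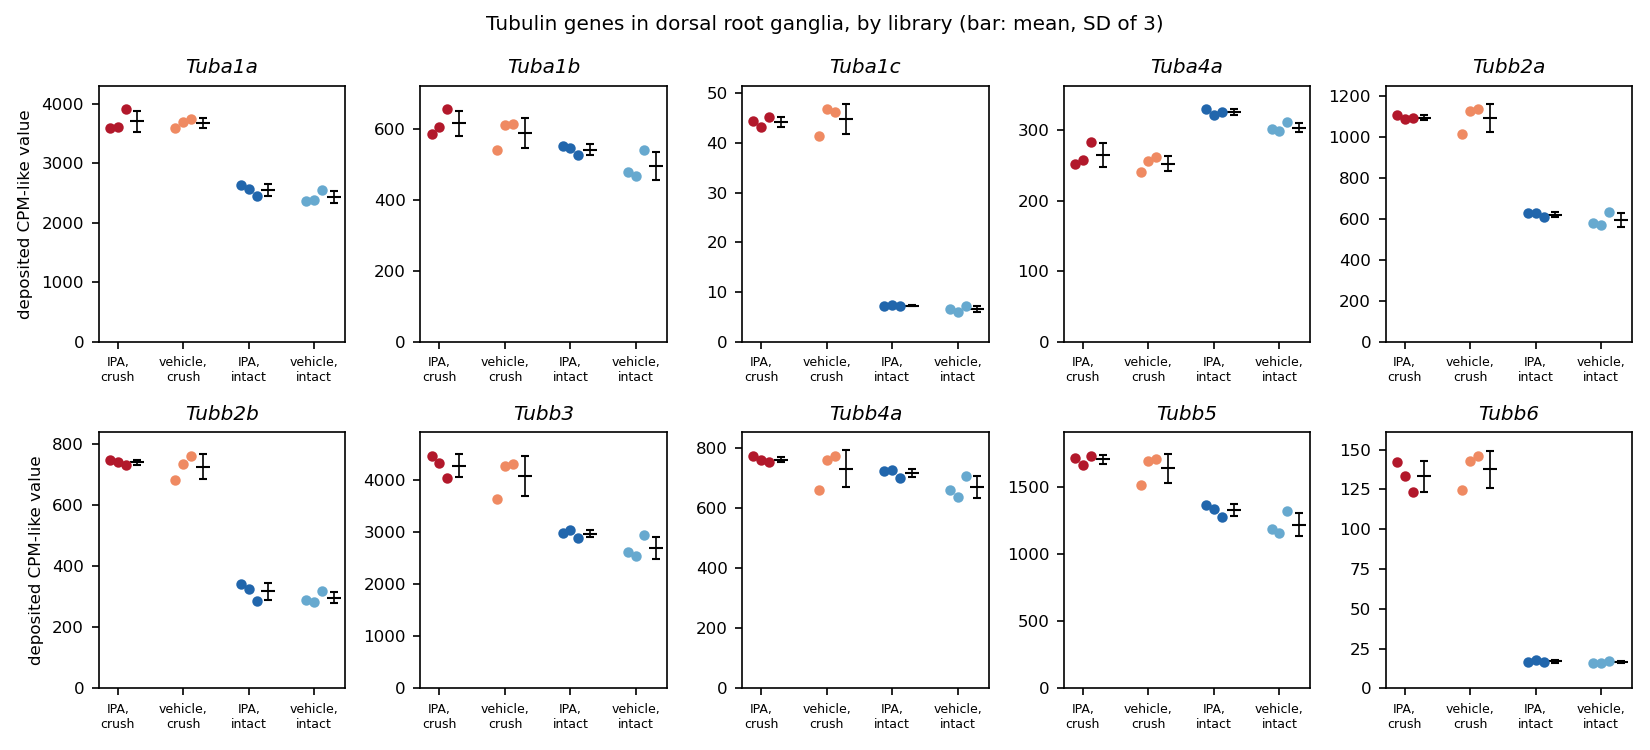
Deposited CPM-like values of the 10 tubulin genes, 1 panel per gene with an axis from 0, for IPA crush, vehicle crush, IPA intact and vehicle intact libraries. Points are libraries, and the bar beside them is the mean with the SD of 3 libraries. Tubb6 and Tuba1c stand at 123 or more and 41.3 or more in crush libraries, against at most 17.98 and 7.47 in intact libraries, and Tuba4a is lower in every crush library.

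The neighbouring genes Tubb2a and Tubb2b, which encode class II beta-tubulins of neurons, both rose. Tubb2b stood at 750.1, 742 and 732 in IPA crush libraries, 684, 735 and 763 in vehicle crush libraries, 342, 325 and 287 in IPA intact libraries and 290.4, 283 and 318 in vehicle intact libraries. Its log2 fold change was 1.22 ± 0.06 under IPA (limma adjusted p = 3.86e-09) and 1.29 ± 0.06 under vehicle (adjusted p = 1.97e-09), and no crush library overlapped an intact one.

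Tubb2a stood at 1105, 1084 and 1090.4 in IPA crush libraries, 1012, 1127 and 1134 in vehicle crush libraries, 627, 627 and 607 in IPA intact libraries and 578, 572 and 631 in vehicle intact libraries. All crush libraries were again above all intact ones. Its log2 fold change was 0.82 ± 0.05 under IPA (limma adjusted p = 3.10e-08) and 0.88 ± 0.05 under vehicle (adjusted p = 1.32e-08). Because reads of this pair can be confused, their sum is given as well: it averaged 1835 ± 18.2 in IPA crush, 1818 ± 107 in vehicle crush, 938 ± 38.8 in IPA intact and 891 ± 50.9 in vehicle intact libraries (SD, n = 3 each). The summed level was 1.96-fold higher after crush under IPA and 2.04-fold higher under vehicle. The ratio of Tubb2b to Tubb2a values lay between 0.672 and 0.684 in IPA crush, 0.652 and 0.676 in vehicle crush, 0.474 and 0.545 in IPA intact and 0.495 and 0.504 in vehicle intact libraries. The crush and intact ratios did not overlap, so in these counts Tubb2b gained on Tubb2a.

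Tubb3 gave the largest gain in CPM-like value of the 10 genes. It stood at 4474, 4341 and 4042 in IPA crush libraries, 3651, 4282 and 4320.4 in vehicle crush libraries, 2989, 3037 and 2896 in IPA intact libraries and 2618, 2548 and 2943 in vehicle intact libraries. The groups did not overlap, although replicate 1 of the vehicle crush group was well below the other crush libraries. The log2 fold change was 0.53 ± 0.07 under IPA (limma adjusted p = 5.86e-05) and 0.59 ± 0.07 under vehicle (adjusted p = 1.63e-05). These are rises of 1.44-fold under IPA and 1.51-fold under vehicle.

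Tuba1a, the alpha-tubulin that predominates in developing and regrowing neurons, stood at 3597, 3609 and 3909 in IPA crush libraries, 3591, 3693 and 3747 in vehicle crush libraries, 2632, 2575 and 2448 in IPA intact libraries and 2374, 2384 and 2556 in vehicle intact libraries. No crush library overlapped an intact one. Its log2 fold change, 0.54 ± 0.05 under IPA (limma adjusted p = 2.27e-06) and 0.59 ± 0.05 under vehicle (adjusted p = 7.48e-07), lay close to that of Tubb3 in both comparisons.

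Tubb5, a beta-tubulin that most cell types make, rose less. It stood at 1715, 1664 and 1731 in IPA crush libraries, 1516, 1694 and 1709 in vehicle crush libraries, 1364, 1338 and 1277 in IPA intact libraries and 1183, 1155 and 1319 in vehicle intact libraries. The groups did not overlap. The log2 fold change was 0.36 ± 0.06 under IPA (limma adjusted p = 2.76e-04) and 0.43 ± 0.06 under vehicle (adjusted p = 5.66e-05).

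Tuba1b, a broadly expressed alpha-tubulin, stood at 585, 605 and 655 in IPA crush libraries, 539, 611 and 613 in vehicle crush libraries, 552, 546 and 525 in IPA intact libraries and 477, 467 and 539 in vehicle intact libraries. Under vehicle the lowest crush library and the highest intact library met. The log2 fold change was 0.18 ± 0.07 under IPA (limma adjusted p = 0.0379) and 0.25 ± 0.07 under vehicle (adjusted p = 0.00671). Both calls were lost when each library's trend on GC content and length was removed, with changes of 0.07 under IPA and 0.09 under vehicle. The call under IPA was also lost without IPA crush replicate 2 or 3, or without any of the IPA intact libraries, with adjusted p of 0.0635 to 0.135.

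The 3 near-identical alpha genes summed to 4364 ± 213 in IPA crush, 4310 ± 123 in vehicle crush, 3099.7 ± 109 in IPA intact and 2939 ± 141 in vehicle intact libraries (SD, n = 3 each). The sum was 1.41-fold higher after crush under IPA and 1.47-fold higher under vehicle. The ratio of Tuba1a to Tuba1b lay between 5.96 and 6.15 in IPA crush, 6.04 and 6.67 in vehicle crush, 4.66 and 4.77 in IPA intact and 4.74 and 5.10 in vehicle intact libraries, with no overlap between crush and intact.

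Tubb4a, a beta-tubulin of neurons and myelinating glia, did not pass. It stood at 773, 761 and 754 in IPA crush libraries, 662, 759.6 and 775 in vehicle crush libraries, 725, 728 and 702 in IPA intact libraries and 662, 638 and 709 in vehicle intact libraries. Under IPA the groups did not overlap, and under vehicle they did. The log2 fold change was 0.09 (95% interval -0.04 to 0.21; limma adjusted p = 0.257) under IPA and 0.13 (0.0003 to 0.25; adjusted p = 0.0912) under vehicle. Without replicate 1 of the vehicle crush group it passed, at 0.20 (adjusted p = 0.00336), and without replicate 3 of the vehicle intact group it passed at 0.17 (adjusted p = 0.0382). Over 14 alternatives that kept all libraries of the comparison, the change ran from 0.01 to 0.21 under vehicle and passed in 2. Under IPA it ran from 0.01 to 0.11 and passed in 1.

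Tuba4a, an alpha-tubulin of mature neurons and other tissues, was the isotype that fell. It stood at 252, 257 and 284 in IPA crush libraries, 241, 256 and 262 in vehicle crush libraries, 329.9, 322 and 327 in IPA intact libraries and 301, 299 and 312 in vehicle intact libraries. Every crush library lay below every intact library. The log2 fold change was -0.30 ± 0.05 under IPA (limma adjusted p = 2.22e-04) and -0.27 ± 0.05 under vehicle (adjusted p = 5.70e-04). Over the 10 genes, crush and intact libraries did not overlap for 10 under IPA and for 8 under vehicle, while 58% of all genes tested under IPA and 51.4% under vehicle did not overlap.

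**Figure D3:**
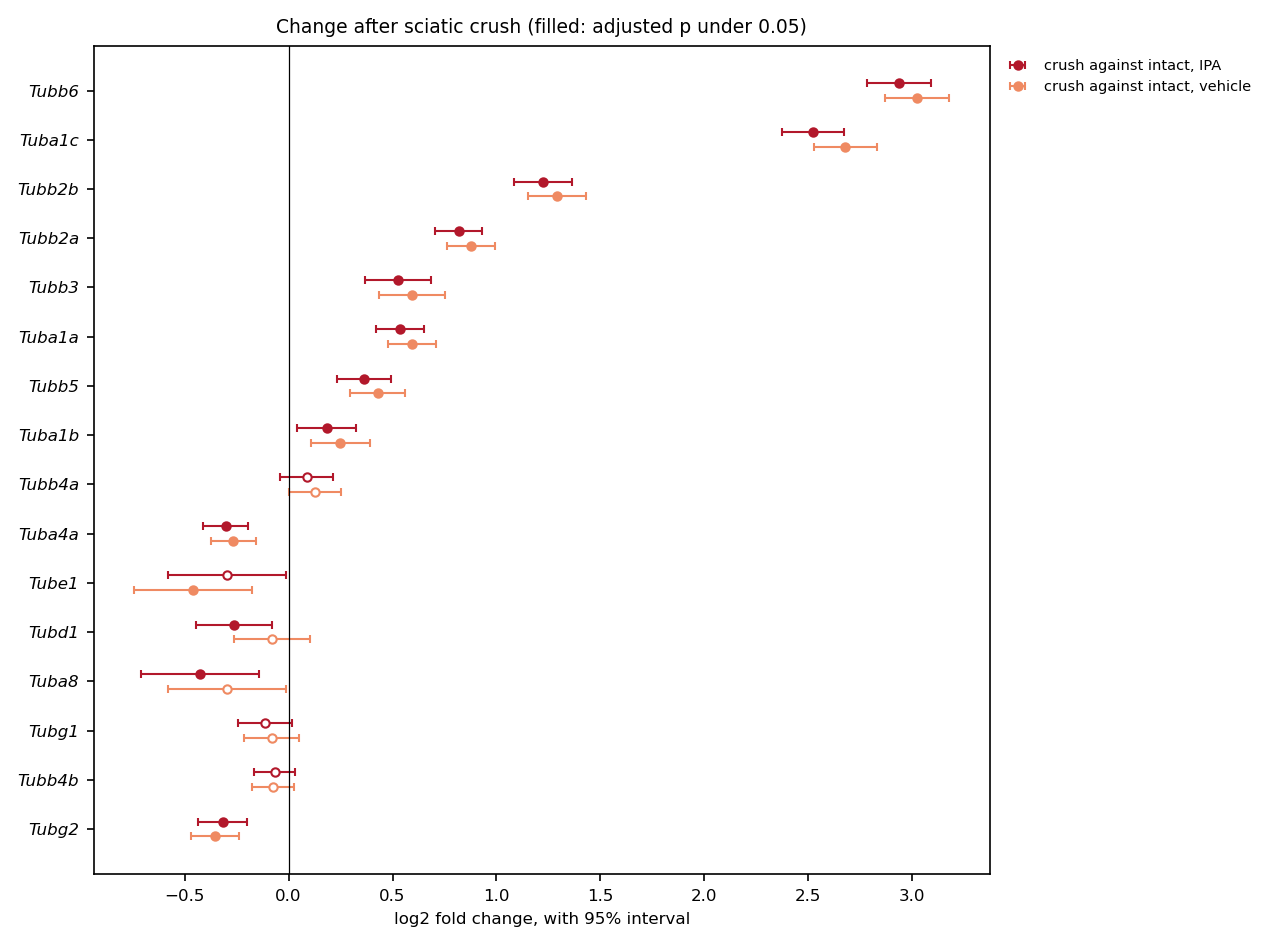
Log2 fold change after sciatic crush of the 10 tubulin isotypes, sorted by the change under vehicle, and below them of the 6 other tubulin genes that passed the filter. Points are limma estimates under IPA and under vehicle, bars are 95% intervals, and filled points have an adjusted p under 0.05. Tubb6 and Tuba1c stand at 2.52 to 3.02, Tuba4a lies below 0, and the points of the 6 other genes all lie below 0.

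The summed value of the 10 genes was 13349 ± 101 in IPA crush, 12975 ± 795 in vehicle crush, 9399.5 ± 268 in IPA intact and 8742 ± 533 in vehicle intact libraries (SD, n = 3 each), 1.42-fold higher after crush under IPA and 1.48-fold higher under vehicle. The increase was spread unevenly, so the make-up of each family differed after crush. Shares are within the alpha or beta genes among the 10. Tubb4b and the other tubulin genes are left out, so shares of a whole family would be lower. Tuba1a made up 83.1% ± 0.2 of the alpha-tubulin level per kilobase in IPA crush, 83.6% ± 0.6 in vehicle crush, 78.8% ± 0.3 in IPA intact and 79.5% ± 0.4 in vehicle intact libraries (SD, n = 3 each). Tuba1b made up 13.3% in IPA crush, 12.8% in vehicle crush, 16.1% in IPA intact and 15.5% in vehicle intact libraries. Tuba4a made up 2.89% in IPA crush, 2.80% in vehicle crush, 4.91% in IPA intact and 4.83% in vehicle intact libraries. Both thus took a smaller part of the family after crush. Tuba1c stayed a small part, at 0.784% in IPA crush, 0.802% in vehicle crush, 0.178% in IPA intact and 0.169% in vehicle intact libraries.

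Among the beta genes the share of Tubb3 differed little, at 54.5% ± 1.2 in IPA crush, 53.8% ± 0.7 in vehicle crush, 56.0% ± 0.4 in IPA intact and 55.2% ± 0.4 in vehicle intact libraries (SD, n = 3 each). Tubb2b made up 7.69% in IPA crush, 7.82% in vehicle crush, 4.87% in IPA intact and 4.95% in vehicle intact libraries. Tubb2a made up 16.2% in IPA crush, 16.7% in vehicle crush, 13.5% in IPA intact and 14.1% in vehicle intact libraries. The class II pair thus took a larger part after crush. Tubb4a made up 8.14% in IPA crush, 8.10% in vehicle crush, 11.3% in IPA intact and 11.5% in vehicle intact libraries. Tubb5 made up 12.2% in IPA crush, 12.2% in vehicle crush, 14.0% in IPA intact and 14.0% in vehicle intact libraries. Despite its fold change Tubb6 reached only 1.30% in IPA crush and 1.39% in vehicle crush libraries, against 0.244% in IPA intact and 0.258% in vehicle intact libraries. Within each treatment, the shares of each of these genes in crush libraries did not overlap those in intact libraries. This holds for Tubb3 too, whose share was lower after crush under both treatments. Only for Tubb3 did they overlap across treatments, with 53.2% to 55.3% in IPA crush and 54.9% to 55.7% in vehicle intact libraries.

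**Figure D4:**
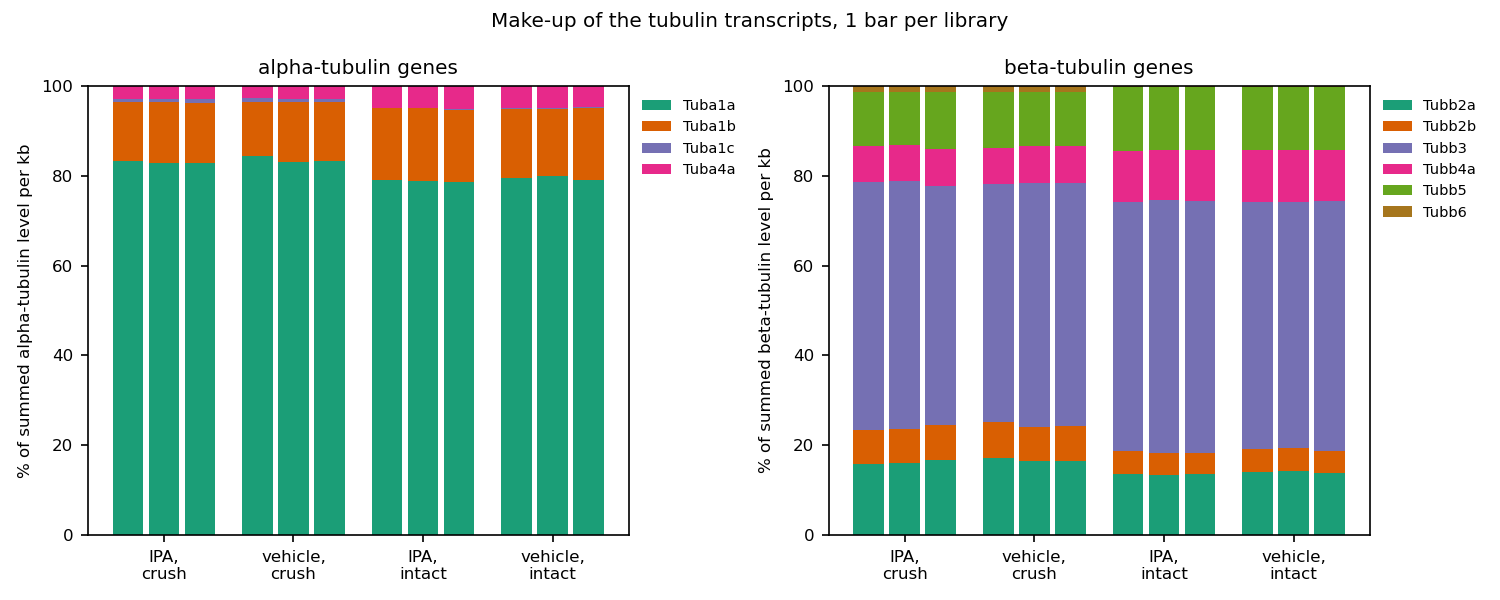
Make-up of the alpha-tubulin and of the beta-tubulin level, in percent of the summed value per kilobase of merged exons, with 1 stacked bar per library in the IPA crush, vehicle crush, IPA intact and vehicle intact groups. Tuba1a holds 78.5% or more of the alpha level in every library, and the bands of Tubb2a, Tubb2b and Tubb6 are wider in crush libraries while those of Tubb4a and Tubb5 are narrower.

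The second question was whether IPA went with a difference in the isotypes. In ganglia after crush, none of the 10 isotypes passed for IPA against vehicle, with log2 differences between -0.05 for Tubb6 and 0.07 for Tubb3, and 0% of all genes tested passed. The IPA crush and vehicle crush libraries overlapped for all 10, and 11.4% of all genes did not overlap. In intact ganglia none passed either, beside 0% of all genes, and the 10 differences all lay above 0, between 0.04 for Tubb6 and 0.14 for Tuba1c, with a median of 0.10 beside 0.01 over all genes. Of all genes, 1258 after crush and 1902 in intact ganglia had an unadjusted p under 0.05 in limma, and none of the 10 isotypes was among them in either comparison. These unadjusted counts moved with single libraries: in intact ganglia 6 isotypes were among 3276 genes without replicate 1 of the vehicle crush group and 6 among 3386 genes without replicate 3 of the vehicle intact group. Without replicate 2 of the vehicle intact group 0 were among 654 genes, and over the libraries left out the count after crush ran from 754 to 2100 genes with 0 isotypes among them. With only the 6 intact libraries in the fit, 5 isotypes were among 3459 genes. No isotype passed after adjustment in any of these fits. On the recovered reads edgeR called 0 genes in both, and DESeq2 called 15 after crush and 3 in intact ganglia, with 0 of the 10 isotypes among them.

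The intervals limit how large a difference could be. In intact ganglia the difference for Tuba1c was 0.14 (95% interval -0.01 to 0.29; limma adjusted p = 0.409), that for Tubb3 was 0.14 (-0.02 to 0.30; adjusted p = 0.414) and that for Tuba4a was 0.10 (-0.01 to 0.21; adjusted p = 0.409). For Tuba1c and Tuba4a the IPA intact and vehicle intact libraries did not overlap, whereas 25.2% of all genes did not. After crush, the interval for Tubb3 was -0.09 to 0.23 around 0.07, and that for Tuba1a was -0.11 to 0.13 around 0.01. Over all 10 isotypes the intervals after crush lay between -0.20 and 0.23.

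Base composition also differed between the libraries of a group. The slope of each library's log2 deviation on transcript GC content was -0.155 per 10% GC in replicate 1 of the vehicle crush group, and -0.104 and -0.146 in replicates 1 and 2 of the vehicle intact group, the 3 lowest of the 12 libraries. Within the vehicle crush and vehicle intact groups these libraries had the lowest mean log2 level of the 10 isotypes. In the IPA intact group the library with the lowest slope, replicate 3 at 0.00507, also had the lowest mean level. In the IPA crush group the library with the lowest slope, replicate 3 at -0.0288, had the highest mean level. The part of base composition in the tubulin levels was not tested beyond removing its trend. With each library's trend on GC content and length removed, 4 isotypes lay above 0 and 6 below for IPA against vehicle after crush, and 6 above and 4 below in intact ganglia, where the range became -0.08 to 0.08. Without replicate 1 of the vehicle crush group, 3 lay above 0 and 7 below after crush.

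The interaction asks whether the change after crush differed between IPA and vehicle. It passed for none of the 10 isotypes and for 0% of all genes tested, and 327 genes had an unadjusted p under 0.05, none of the 10 isotypes among them. The 10 estimates all lay below 0, between -0.16 for Tuba1c and -0.04 for Tuba4a. At least 1 lay above 0 with the trend on GC content and length removed (1 isotype), with quantile normalization (2 isotypes) and without replicate 3 of the vehicle crush group (1 isotype). Without replicate 1 of the vehicle crush group the median estimate was -0.12, against -0.07 with all libraries, and 1 isotype was among 1696 genes with an unadjusted p under 0.05. Without replicate 3 of the vehicle intact group 1 isotype was among 510 such genes. For Tuba1c the 95% interval was -0.37 to 0.06, and for Tubb6, whose estimate was -0.09, it was -0.30 to 0.13 (limma adjusted p = 0.9997 for each). edgeR called 0 genes and DESeq2 called 3. The crush comparisons under IPA and under vehicle share no library, whereas the interaction uses all 4 groups and thus the same libraries as the comparisons before it.

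**Figure D5:**
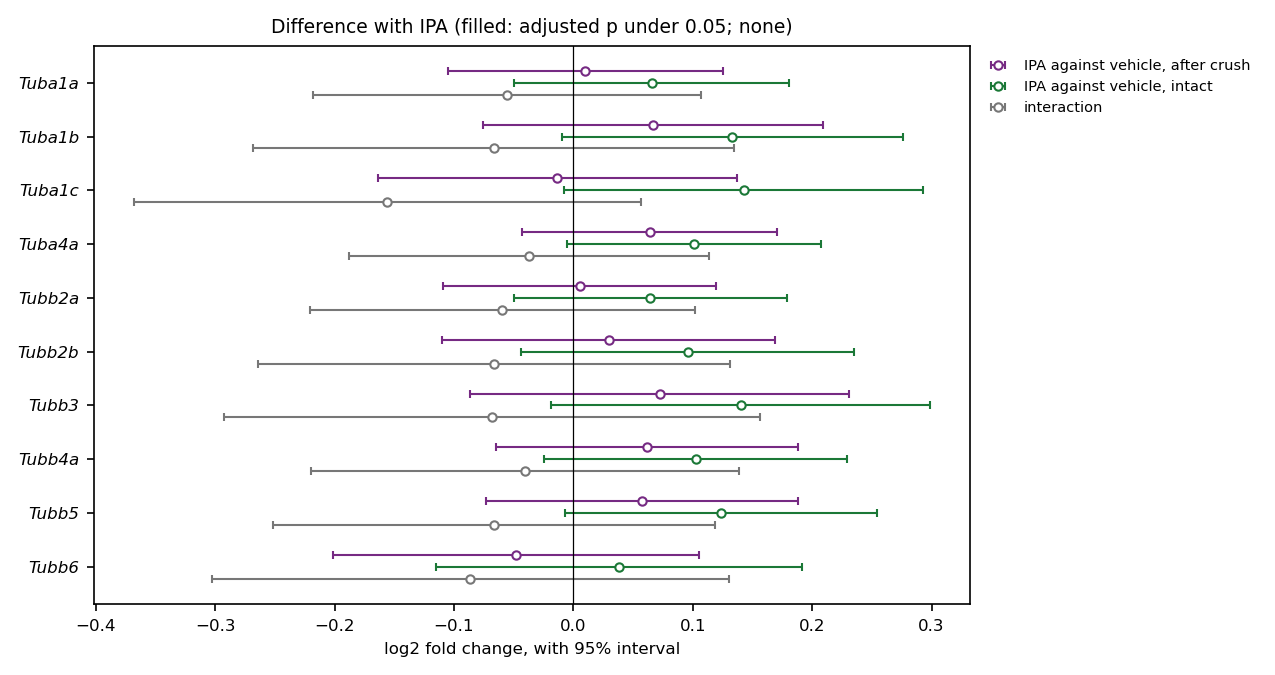
Log2 difference of the 10 tubulin isotypes for IPA against vehicle after crush, for IPA against vehicle in intact ganglia and for the interaction, with 95% intervals from limma. No point is filled, since no adjusted p was under 0.05. Every interval includes 0, with estimates between -0.05 and 0.07 after crush, 0.04 and 0.14 in intact ganglia and -0.16 and -0.04 for the interaction.

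None of the other tubulin genes tested rose after crush. Of 10 such genes, 6 passed the filter, and 0 rose after crush, while 3 fell under IPA and 2 under vehicle, beside 22.5% of all genes falling under IPA and 24.4% under vehicle. Tubb4b, a beta-tubulin common in ciliated and many other cells, averaged 711 ± 5.2 in IPA crush, 675 ± 17.4 in vehicle crush, 745 ± 18.8 in IPA intact and 711 ± 38.2 in vehicle intact libraries (SD, n = 3 each). Its log2 change was -0.07 under IPA and -0.08 under vehicle, and neither passed. Tubg2, a gamma-tubulin of the complex that starts new microtubules, fell by 0.32 on the log2 scale under IPA and by 0.35 under vehicle (limma adjusted p = 3.06e-04 under IPA and 1.08e-04 under vehicle). Tubg1, the main gamma-tubulin, had changes of -0.11 under IPA and -0.08 under vehicle and did not pass.

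The low tubulin genes had wider errors. Tuba8 fell by 0.42 ± 0.13 under IPA (limma adjusted p = 0.0177), and its change of -0.30 under vehicle did not pass. Tubd1, which encodes the delta-tubulin of centrioles, fell by 0.26 ± 0.09 under IPA, and its -0.08 under vehicle did not pass. Tube1, the epsilon-tubulin of centrioles, fell by 0.46 ± 0.13 under vehicle, and its -0.30 under IPA did not pass. Tuba3a, Tuba3b, Tubal3 and Tubb1 were below the filter, with highest values of 0.0379, 0.0908, 0.0182 and 0.513 in any library. None of these differences between IPA and vehicle passed an interaction test.

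Of 22 tubulin folding genes tested, 9 rose, 1 fell and 12 did not pass after crush under IPA, and 8 rose, 1 fell and 13 did not pass under vehicle, beside 21.2% of all genes rising under IPA and 23.6% under vehicle. Their median log2 change was 0.11 under IPA and 0.12 under vehicle. Tbcd, a cofactor that assembles the alpha-beta pair, rose by 0.29 ± 0.04 under IPA and 0.32 ± 0.04 under vehicle. Subunits of the CCT chaperonin, which folds newly made tubulin and actin, were among the genes that rose. Cct8, Cct3, Cct5 and Cct4 rose by 0.31, 0.25, 0.25 and 0.32 under IPA and by 0.27, 0.27, 0.30 and 0.27 under vehicle. Tbcel, a relative of a tubulin cofactor that destabilises tubulin, fell by 0.21 under IPA and by 0.29 under vehicle.

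Of 24 enzymes and cofactors that modify tubulin, 4 rose and 7 fell under IPA and 5 rose and 5 fell under vehicle. Counted in either direction, this is near the 43.6% of all genes called under IPA and the 48% under vehicle. Vash2, a carboxypeptidase that removes the terminal tyrosine of alpha-tubulin, averaged 13.3 ± 0.6 in IPA crush, 13.8 ± 1.4 in vehicle crush, 4.08 ± 0.15 in IPA intact and 3.68 ± 0.12 in vehicle intact libraries (SD, n = 3 each). It rose by 1.59 ± 0.08 on the log2 scale under IPA and 1.76 ± 0.08 under vehicle (limma adjusted p = 2.17e-09 under IPA and 6.42e-10 under vehicle). Agtpbp1, which shortens glutamate side chains on tubulin, rose by 0.41 under IPA and by 0.39 under vehicle. Ttll7, which adds glutamates to beta-tubulin, fell by 0.59 under IPA and by 0.75 under vehicle. Tpgs2, a subunit of a polyglutamylase complex, fell by 0.46 under IPA and by 0.47 under vehicle.

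Of 17 genes for microtubule nucleation, 1 rose and 5 fell under IPA and 1 rose and 7 fell under vehicle. In either direction this is no more than the 43.6% of all genes called under IPA and the 48% under vehicle. By direction, 21.2% of all genes rose and 22.5% fell under IPA, and 23.6% rose and 24.4% fell under vehicle. The median log2 change of the list was -0.14 under IPA and -0.13 under vehicle. Tubgcp4, a subunit of the gamma-tubulin ring complex, fell by 0.76 under IPA and by 0.75 under vehicle. Haus4, of the augmin complex that branches microtubules, fell by 0.52 under IPA and by 0.45 under vehicle. Nedd1, which links the ring complex to its sites, rose by 0.32 under IPA and by 0.39 under vehicle.

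Of 26 genes for proteins that bind microtubules or their plus ends, 4 rose and 10 fell under IPA and 5 rose and 9 fell under vehicle, beside 21.2% of all genes rising and 22.5% falling under IPA and 23.6% rising and 24.4% falling under vehicle. Map7d1, of the MAP7 family that recruits kinesin-1, rose by 1.17 under IPA and by 1.26 under vehicle. Its relative Map7d2 fell by 0.44 under IPA and by 0.48 under vehicle, and Map7 fell by 0.23 under IPA and by 0.34 under vehicle. Mapre2, an end-binding protein, fell by 0.33 under IPA and by 0.36 under vehicle. Of 9 severing genes 1 rose and 2 fell in each comparison, a smaller share than among all genes, and Fignl2, a fidgetin-like protein, fell by 0.42 under IPA and by 0.60 under vehicle.

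Most macrophage and proliferation markers rose with the crush, beside 21.2% of all genes rising under IPA and 23.6% under vehicle. Of 10 macrophage markers 9 rose under IPA and 10 under vehicle, with a summed level of 199 to 245 in IPA crush, 209.9 to 229 in vehicle crush, 64.4 to 96.5 in IPA intact and 67.7 to 83.4 in vehicle intact libraries. Of 10 proliferation genes 9 rose in both, with summed levels of 34.9 to 38.9 in IPA crush, 38.6 to 40.1 in vehicle crush, 12.5 to 15.4 in IPA intact and 13.2 to 17.8 in vehicle intact libraries. Prc1 held the largest part of this sum, with means of 16.6 in IPA crush, 19.2 in vehicle crush, 3.13 in IPA intact and 3.47 in vehicle intact libraries. Of 6 fibroblast markers 2 rose under IPA and 3 under vehicle, with a median log2 change of 0.02 under IPA and 0.31 under vehicle. Under IPA their summed levels overlapped between crush and intact libraries. Their summed levels were 814 to 908 in IPA crush, 862 to 964 in vehicle crush, 715 to 912 in IPA intact and 699.8 to 839 in vehicle intact libraries. No marker on these lists was at 0 in any library. The part of these cells in the levels of Tubb6, Tuba1c, Tubb5 and the other isotypes that many cell types make was not tested.

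Neuronal and glial markers are read against all genes, of which 21.2% rose and 22.5% fell under IPA and 23.6% rose and 24.4% fell under vehicle. Of 10 sensory neuron markers 2 rose and 6 fell in both comparisons, and Snap25, a protein of synaptic release, fell by 0.63 under IPA and by 0.70 under vehicle. Nefh, a neurofilament, fell by 0.61 under IPA and by 0.55 under vehicle. Elavl3, an RNA-binding protein of neurons, rose by 0.49 under IPA and by 0.58 under vehicle, and Uchl1 rose by 0.28 under IPA and by 0.33 under vehicle. Their summed level was 8969.6 to 9748 in IPA crush, 8412 to 9151 in vehicle crush, 10428 to 10536 in IPA intact and 9595 to 10415 in vehicle intact libraries, and within each treatment it was lower after crush, where Tubb3 was higher. Of 8 satellite glia markers 2 rose and 2 fell under IPA and 2 rose and 1 fell under vehicle. Of 8 markers of myelinating Schwann cells 0 passed under IPA and 1 rose under vehicle. Of 8 markers of endothelial cells and pericytes 1 rose and 2 fell in both, near the shares over all genes.

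The genes outside the family whose profiles over the 12 libraries were most like those of the isotypes were found by the smallest root-mean-square (RMS) difference of log2 values, each gene centred on its own mean. All points share the same libraries, and likeness says nothing of shared function. For Tubb6 these were Cyp4b1 (RMS difference 0.083) and Csf1 (0.090), and for Tuba1c they were Smim3 (0.083) and Nkain1 (0.093). Csf1, which encodes the growth factor of macrophages and microglia, averaged 129 in IPA crush, 138 in vehicle crush, 16.9 in IPA intact and 16.7 in vehicle intact libraries. For Tubb2b the nearest were Fads3 (0.046) and Rcc1 (0.058), and for Tubb2a they were Fam53c (0.021) and Esyt1 (0.023).

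For the isotypes with smaller changes the RMS differences were all under 0.04. For Tuba1a the nearest were Rps3 (0.021) and Psmd8 (0.037), for Tubb3 Plscr3 (0.034) and Rps2 (0.035), and for Tubb5 Trpv2 (0.023), a cation channel of sensory neurons and other cells, and Actg1 (0.037), which encodes gamma-actin. For Tuba1b they were Sec61a1 (0.035) and Eif2b2 (0.037), for Tubb4a Poldip3 (0.025), and for Tuba4a Ip6k1 (0.037) and Fbxo21 (0.038). The isotypes' own RMS deviation over the libraries was 1.49 for Tubb6, 1.30 for Tuba1c, 0.63 for Tubb2b, 0.43 for Tubb2a and 0.09 to 0.30 for the other 6, so a small RMS difference means less for the genes that varied little.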

How the data were processed

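The authors deposited 1 table of 12 libraries whose name says FPKM, but its values are CPM-like: per the values, 100% are whole multiples of 1 step per library (tolerance 1e-06), with no gene length divided out, so reads could be recovered. The submitters' processing notes name FastQC 0.10.1, STAR 2.7.0, R 3.5.0, limma 3.38.3, edgeR 3.24.3 and mm10. The sources used here give no read counter or annotation. Per the labels' protocols, poly(A) RNA was made into directional libraries read as 75-base pairs, and replicates are separate pools of 2 mice.

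The 10 isotypes and all gene lists were chosen with earlier results of these data known. Values were taken as log2(value + 0.5), filtered at 0.5 in at least 3 libraries, and fitted over 15603 genes and 12 libraries with limma-trend (limma 3.58.1, R 4.3.3; 8 residual degrees of freedom) without a block. The design assumed FPKM and named edgeR only for raw counts; its limma test was kept. Named genes were the 10 isotypes, all other tubulin genes, up to 4 members of each list with the smallest p among those past the test in a crush comparison, and the 2 nearest profiles per isotype; Prph, Avil, Elavl3, Uchl1 and Stk16 were named after their values were seen, and a few items are not reported here. Levels between genes are per kilobase of merged exons (GENCODE M21). The recovered reads were also tested with edgeR 4.0.16 (quasi-likelihood), which called 6936 genes after crush under IPA and 7493 under vehicle, and with DESeq2 1.42.0, which called 7036 and 7545. Other alternatives were pseudocounts, filters, scalings, array weights, robust fitting, removal of GC and length trends, a replicate block, and each library left out; the model was tested on simulated data.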

Additional observations from a re-analysis of the deposited data

How the results depend on the processing

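The counts of isotypes passing, 9 in each crush comparison and 0 in the others, were recomputed under 14 alternatives (13 for the interaction) and without each of the 12 libraries. They stayed within 1.5 times the counts given, except that array weights called 6 isotypes, all higher, for IPA against vehicle in intact ganglia. The gene-by-gene form of these weights was chosen after seeing the data, because the default form did not converge. These weights were 4.86 for IPA crush replicate 2 and 0.185 for vehicle crush replicate 1, and under them 9 isotypes had an unadjusted p under 0.05 in intact ganglia and 9 for the interaction, and 3273 genes in all passed in intact ganglia, 324 after crush and 2 for the interaction. The cause was not tested. Without a library the counts ranged from 8 to 9 under IPA and 9 to 10 under vehicle after crush, and stayed at 0 in the other 3 comparisons. No log2 change of an isotype after crush turned its direction in any alternative. Of the changes after crush, only those of Tuba1b and Tubb4a crossed the threshold: Tuba1b was lost without the trend on GC content and length (with the replicate block, adjusted p = 0.169 under IPA and 0.0798 under vehicle), and under IPA with no filter (adjusted p = 0.0961). Tubb4a passed under vehicle with quantile normalization (0.14) and array weights (0.21), and under IPA with array weights (0.08). The replicate block left 9, 9, 0, 0 and 0 isotypes passing. Correlations of same-numbered libraries were -0.25 to 0.21, and those of differently numbered libraries were -0.35 to 0.29. They show no pairing by number, but with 3 libraries per group they cannot exclude one. Of 120 recomputed shares of a family's level, 98 moved by more than 1 SD with another length or gene set. Tuba1c rested on 314 to 502 reads in intact libraries, so counting error is a sizeable part of its spread there. The pools of 2 mice hide the spread between animals, and 3 libraries per group limit the differences with IPA that could be seen.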
